A study of Mus musculus with 16 samples.

Results

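The RNA of 10 Toll-like receptor genes was followed in tumor-associated macrophages (TAMs) of mice with ovarian tumors, namely *Tlr1*, *Tlr2*, *Tlr3*, *Tlr4*, *Tlr5*, *Tlr6*, *Tlr7*, *Tlr8*, *Tlr9* and *Tlr13*. They were chosen by name, with earlier results of these data known, and all 10 were found among the 55604 genes of the count files. The study compared TAMs that carry Tim-4, a phosphatidylserine receptor that marks long-lived resident peritoneal macrophages, with TAMs that lack it. RNA from both subsets was sequenced in 4 numbered pairs (793, 784, 783 and 779), which gave 8 libraries, each read in 2 lanes that were summed here (n = 4 per subset). The counts on genes totaled 53527928 to 57768202 per Tim-4+ library and 55618306 to 69594245 per Tim-4- library.

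Both subsets came from the peritoneal wash of female C57BL/6 mice, taken 6 to 7 weeks after they received ID8 cells. The study used mice of 6 to 8 weeks of age. ID8 is a mouse ovarian epithelial cancer line, here with a luciferase gene, that grows in the peritoneum. Tim-4+ TAMs were pulled out with a PE-coupled antibody to Tim-4 and anti-PE beads, and Tim-4- TAMs were then taken from the remaining cells with beads against F4/80. No other treatment or genotype separates the groups. *Timd4*, which encodes Tim-4, stood at 524 to 1744 CPM (counts scaled to library size) in the Tim-4+ libraries and at 1.97 to 84.98 CPM in the Tim-4- libraries, a log2 difference of 6.09 (SE 1.08, edgeR adjusted p = 0.0167). In such bulk samples, fewer cells of a type and less RNA per cell cannot be told apart.

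Toll-like receptors are the membrane receptors with which macrophages sense microbial molecules and some products of damaged cells. *Tlr1*, *Tlr2*, *Tlr4*, *Tlr5* and *Tlr6* encode receptors of the cell surface, which bind lipopeptides (TLR2 paired with TLR1 or TLR6), lipopolysaccharide (TLR4 with MD-2) and flagellin (TLR5). *Tlr3*, *Tlr7*, *Tlr8*, *Tlr9* and *Tlr13* encode receptors of the endosome, which bind nucleic acids, among them double-stranded RNA (TLR3), single-stranded RNA (TLR7), unmethylated CpG DNA (TLR9) and bacterial ribosomal RNA (TLR13). Peritoneal macrophages use these receptors against bacteria that enter the cavity.

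The subsets differed in 2 of the 10 receptors, both endosomal. *Tlr13* was 1.79-fold higher in Tim-4+ TAMs, and *Tlr9* was 3.65-fold higher in Tim-4- TAMs. None of the 5 surface receptors passed the test, which was edgeR's quasi-likelihood test blocked by pair, at an adjusted p under 0.05 (Benjamini-Hochberg, 16861 genes). All 10 receptors passed the filter on low counts. By the same test 17.4% of all tested genes differed, 8.97% being higher and 8.43% lower in Tim-4+ TAMs, so 1 receptor of 10 in each direction is close to the share among all genes. Scaled to total counts instead, 1 receptor was called higher and 4 lower. That scaling called 789 of the 16861 genes higher and 4906 lower, so its receptor counts need that wider background. The median log2 difference was 0.13 over the 10 receptors and -0.0012 over all tested genes.

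Reads that matched more than one place had been set aside in the count files, so the letters that receptors share bear on their counts. Of the 50-base stretches in the transcripts of *Tlr1* and *Tlr6*, 15.4% and 12.3% occurred also in another gene, and 454 stretches were common to these 2 genes. The longest identical run lies in the coding sequence of both, from base 1468 to 1696 of the 2385 coding bases of *Tlr1* and from base 1507 to 1735 of the 2418 of *Tlr6*. It is shown because a read wholly within it matches both genes alike. The libraries were read paired-end, so only a mate outside the shared sequence could place such a read. The run is given in lower case, 5′ to 3′, from the GENCODE M21 transcripts:
Tlr1 and Tlr6, shared 229 bases: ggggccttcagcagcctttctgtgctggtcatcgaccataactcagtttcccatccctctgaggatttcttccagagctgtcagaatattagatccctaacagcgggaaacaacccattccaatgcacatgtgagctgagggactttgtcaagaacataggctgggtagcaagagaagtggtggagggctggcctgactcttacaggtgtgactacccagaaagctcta
The counts of *Tlr1* and *Tlr6* are therefore uncertain. In *Tlr4* the shared part was 0.0180%, and in the other 7 receptors it was 0%. By the GENCODE M21 annotation on GRCm38, *Tlr1* (chr5:64924679-64933563) and *Tlr6* (chr5:64952031-64960097) are neighbors on the minus strand.

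The bases upstream of the 2 receptors that differed are printed from RefSeq on GRCm38.p6, to show which short motifs stand there. *Tlr9* (ENSMUSG00000045322.10) lies on the plus strand at chr9:106222598-106226883, and *Tlr13* (ENSMUSG00000033777.4) on the plus strand at chrX:106143204-106160493. The window of *Tlr13* ends where the GENCODE gene begins, so it holds 179 bases against 250 for *Tlr9*. Capitals mark matches to 3 of the motifs searched, namely GAGGAA of PU.1, AGATAA of GATA factors and TGANTCA of AP-1, each on both strands:
Tlr9, chr9:106222348-106222597: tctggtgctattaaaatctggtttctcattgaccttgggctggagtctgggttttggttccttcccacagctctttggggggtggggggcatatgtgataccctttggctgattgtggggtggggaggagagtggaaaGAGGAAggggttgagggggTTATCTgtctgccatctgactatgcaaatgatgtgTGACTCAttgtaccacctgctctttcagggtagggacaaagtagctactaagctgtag
Tlr13, chrX:106143025-106143203: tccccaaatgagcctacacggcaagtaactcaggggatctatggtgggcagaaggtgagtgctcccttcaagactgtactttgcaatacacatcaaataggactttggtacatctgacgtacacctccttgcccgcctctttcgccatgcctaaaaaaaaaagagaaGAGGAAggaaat
Both windows hold GAGGAA, the core of sites for PU.1, a factor of the macrophage lineage, and 23.4% of 32536 RefSeq promoters hold it too. The GATA and AP-1 motifs were found upstream of *Tlr9* and not in the shorter window of *Tlr13*, and occur in 9.97% and 6.73% of promoters. The full 250 bases before the RefSeq start of *Tlr13* held neither of them. Also searched were GAAANNGAA of IRF factors (7.15% of promoters), TTGCNNAA of C/EBP (9.57%) and GGGANTTTC of NF-kB (0.944%), with no match in either window. RefSeq windows were found for 8 of the 10 receptors, and 4 of the 8 held GAGGAA. A match is a description of letters only.

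Levels of different receptors were compared per length, as CPM divided by the kb of exon. *Tlr2* stood highest in both subsets, at a mean of 173 CPM per kb in the Tim-4+ subset and 155 in the other. In Tim-4+ TAMs *Tlr13* (87.0), *Tlr7* (39.0), *Tlr8* (24.3) and *Tlr4* (9.65) followed. *Tlr1* (6.58), *Tlr6* (5.49) and *Tlr3* (3.56) came next, and *Tlr9* (0.798) and *Tlr5* (0.149) stood last. Along this order the ranges over the 4 Tim-4+ libraries were apart between *Tlr2* and *Tlr13*, *Tlr13* and *Tlr7*, *Tlr8* and *Tlr4*, and *Tlr3* and *Tlr9*. The ranges of the other neighbors overlapped, although within each library the order was the same in all 4, except that *Tlr1* was above *Tlr6* in 3 of 4.

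In Tim-4- TAMs the order of the first 4 receptors was the same, with *Tlr13* at 48.8, *Tlr7* at 29.3 and *Tlr8* at 19.7 CPM per kb. *Tlr1* (10.8) and *Tlr4* (9.92) changed places there, with *Tlr1* above *Tlr4* in 2 of the 4 libraries. *Tlr6* (4.54), *Tlr3* (3.75), *Tlr9* (2.31) and *Tlr5* (0.310) closed the order. Only 3 neighbors in it had ranges apart, *Tlr2* from *Tlr13*, *Tlr4* from *Tlr6*, and *Tlr9* from *Tlr5*.

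**Figure D1:**
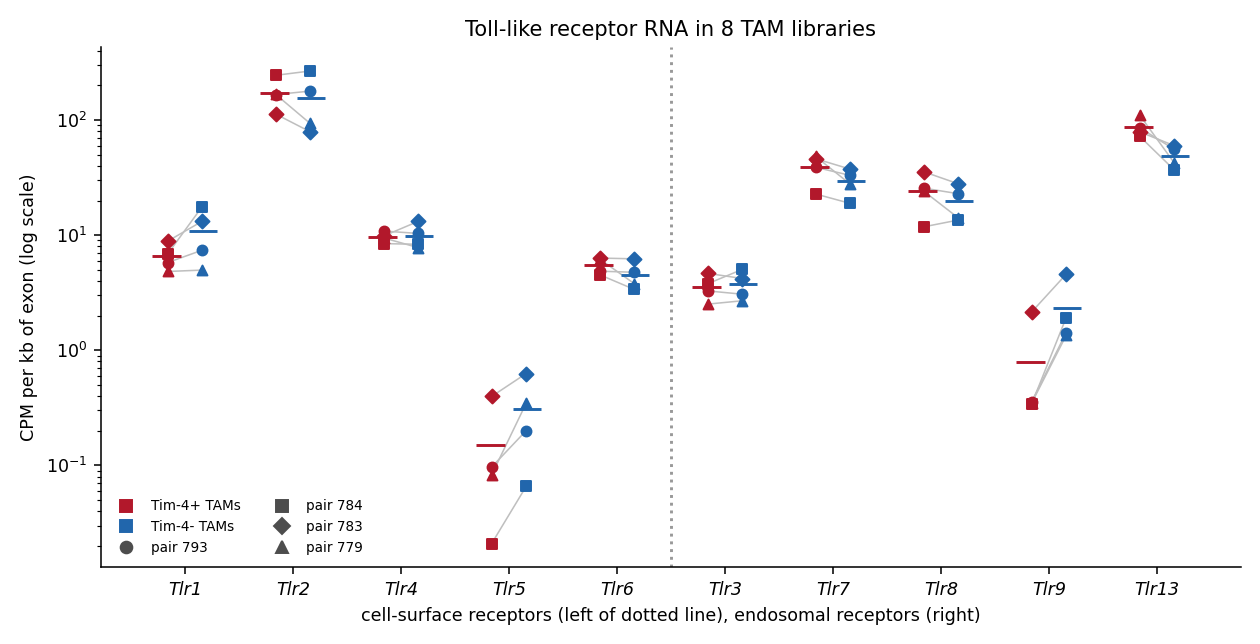
Level of each receptor in CPM per kb of exon (log axis), with 1 point per library, lines joining the subsets of a pair and bars at the means. In every pair *Tlr13* is higher and *Tlr9* lower in the Tim-4+ library, and pair 783 (diamonds) has the highest *Tlr9* and *Tlr5* of both subsets.

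*Tlr13*, the receptor for bacterial ribosomal RNA, was read at 369, 312, 340 and 476 CPM in the Tim-4+ libraries of pairs 793, 784, 783 and 779. In the Tim-4- libraries of the same pairs it was read at 240, 159, 258 and 183 CPM. Every Tim-4+ library lay above every Tim-4- library. The means were 374 ± 71.9 CPM (SD, n = 4) and 210 ± 46.6 CPM (SD, n = 4), and the log2 difference was 0.84 (SE 0.17, 95% interval 0.44 to 1.24, edgeR adjusted p = 0.0183). The gap was widest in pair 779, at a log2 ratio of 1.38, and narrowest in pair 783, at 0.40.

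*Tlr13* was the 1 receptor of 10 whose libraries did not overlap between the subsets, beside 12.8% of all tested genes. With 1 pair left out, the *Tlr13* difference ranged from 0.66 to 0.98. It missed the threshold without pair 793 (0.92, edgeR adjusted p = 0.0520), without pair 784 (0.79, adjusted p = 0.106) and without pair 779 (0.66, adjusted p = 0.0629). Without the pair block it was 0.83 (edgeR adjusted p = 0.0667). Scaling to total counts gave 0.48 (edgeR adjusted p = 0.0303), where the median of all genes was -0.36.

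Among 8769 genes with at least 10 CPM, the 3 whose centered log2 level lay nearest to that of *Tlr13* over the 8 libraries were *C1qc*, *Hexa* and *C1qa*, with root mean square differences of 0.0983, 0.107 and 0.112. *C1qa* and *C1qc* encode chains of complement C1q, a macrophage product, and *Hexa* a lysosomal hexosaminidase subunit. Of 10 macrophage markers 6 rose in Tim-4+ TAMs (*Adgre1*, *Cd68*, *Mertk*, *Itgam*, *Lyz2* and *Cd14*) and *Mrc1* fell. *Csf1r*, *Fcgr1* and *Ptprc* were not called, at log2 differences of 0.25, -0.17 and -0.0020. The 10 summed to 45260 to 57672 CPM in the Tim-4+ libraries and 22105 to 34863 CPM in the others. Most of each sum was *Lyz2*, for example 46931 of 57672 and 27076 of 34863 CPM in pair 793. The part of these marker differences in the *Tlr13* result was not tested.

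*Tlr9*, the receptor for CpG DNA, was read at 1.24, 1.18, 7.48 and 1.21 CPM in Tim-4+ TAMs of pairs 793, 784, 783 and 779. In Tim-4- TAMs of these pairs it was read at 4.93, 6.67, 15.9 and 4.68 CPM. Pair 783 was highest in both subsets, and its Tim-4+ library exceeded 3 of the 4 Tim-4- libraries, so the subsets overlapped although the Tim-4+ library was the lower one in every pair. Its Tim-4+ library held 409 counts, beside 58 to 59 in the other 3 Tim-4+ libraries. The means were 2.78 ± 3.13 CPM and 8.05 ± 5.31 CPM (SD, n = 4 each), and the log2 difference was -1.87 (SE 0.27, 95% interval -2.48 to -1.25, edgeR adjusted p = 0.00804).

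The 4 pair ratios of *Tlr9* were -1.96, -2.47, -1.09 and -1.93 on the log2 scale. Leaving out 1 pair moved the difference between -2.15 and -1.66, and without pair 784 it missed the threshold (-1.66, edgeR adjusted p = 0.0592). Without the pair block the difference was -1.53 (edgeR adjusted p = 0.253). Total counts gave -2.22 (edgeR adjusted p = 0.00779).

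Other cell types carry *Tlr9* as well, B cells and plasmacytoid dendritic cells among them, and their markers were read beside it. Of 6 B cell markers tested, *Cd79b* and *Blk*, both of B cell receptor signaling, fell in Tim-4+ TAMs. The summed level of the 7 listed B cell markers was 5.54 to 16.03 CPM in the Tim-4+ subset and 11.5 to 19.6 CPM in the other. In pair 783, where *Tlr9* was highest, the B cell sum was 5.54 and 12.5 CPM. The plasmacytoid markers summed to 1.81 to 5.78 and 1.49 to 2.68 CPM, and were highest in pair 783 in both subsets, as *Tlr9* was. In every pair this sum was higher in the Tim-4+ library, where *Tlr9* was lower. *Cox6a2* made up 4.46 of the 5.78 CPM. *Ccr9*, the other plasmacytoid marker tested, had log2 ratios of -2.29, -0.17, 2.29 and -1.55 in pairs 793, 784, 783 and 779. None of the 2 plasmacytoid markers tested passed, and *Siglech*, a defining marker, had 0 to 20 counts. All 7 tumor and mesothelial markers fell in Tim-4+ TAMs, with sums of 101 to 376 CPM against 399 to 1887 CPM, and the highest Tim-4+ sum was that of pair 783.

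The 3 genes nearest to *Tlr9* in pattern, among 8770 with a mean of at least 10 CPM, were *Igfbp5*, *Prune2* and *Muc16*. Their root mean square differences were 0.396, 0.460 and 0.466. The listed B cell and plasmacytoid markers all lay under 10 CPM, so the search could not return them. *Muc16* encodes CA125, a mucin of mesothelial and ovarian tumor cells. *Kit* and *Mcpt4*, of 4 eosinophil and mast cell markers tested, also fell. *Cpa3* (-3.12, edgeR adjusted p = 0.0793) and the eosinophil marker *Siglecf* (0.35, edgeR adjusted p = 0.789) were not called. *Epx* and *Prg2* had at most 6 and 10 counts in a library. The sum of the 6 listed was 3.51 to 15.9 CPM with Tim-4 and 19.4 to 62.2 CPM without. Most of it was *Kit*, for example 15.4 of the 15.9 CPM and 55.6 of the 62.2 CPM. Of 5 conventional dendritic cell markers, *Cd209a* rose and *Zbtb46* fell. Of the T and NK cell markers none reached the filter on low counts, and of 6 neutrophil markers 1 did and was not called. The part of these cells in the *Tlr9* result was not tested.

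**Figure D2:**
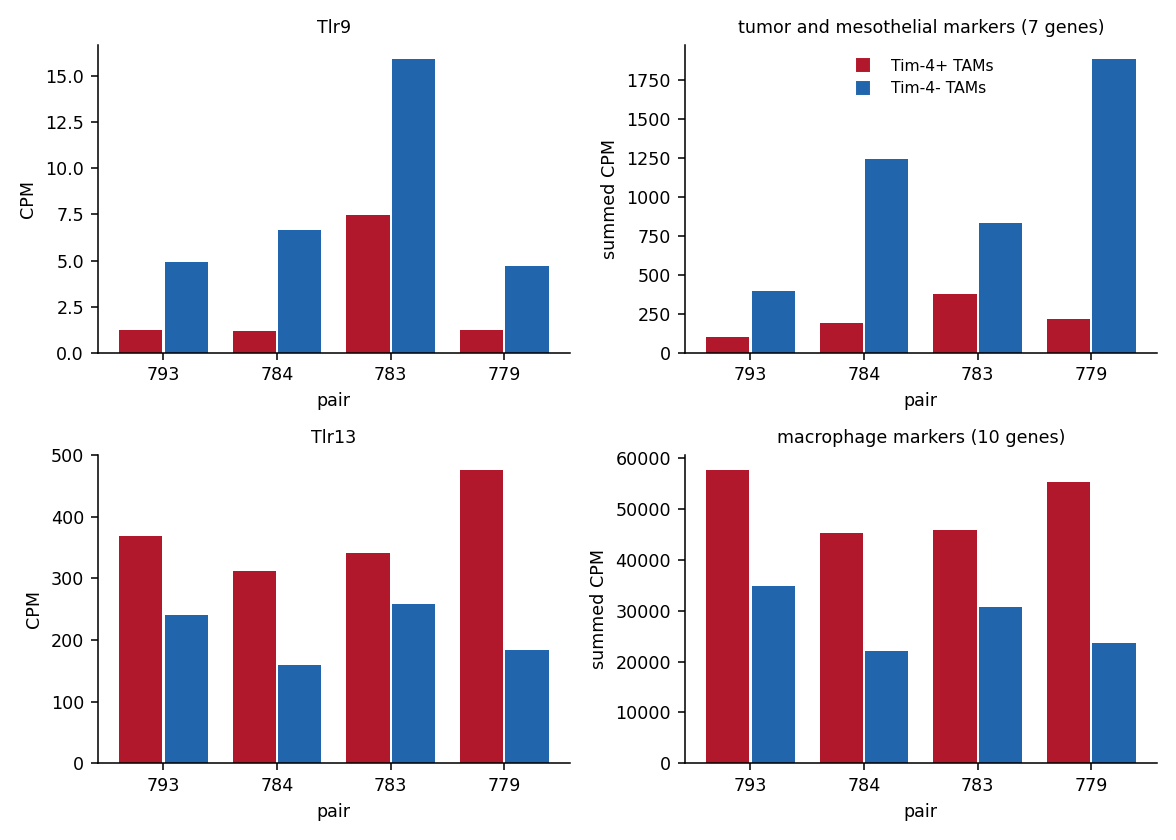
*Tlr9* and *Tlr13* in CPM (left, linear axes from 0) beside the summed CPM of tumor and mesothelial markers and of macrophage markers (right), by pair, red for the Tim-4+ and blue for the Tim-4- library. The tumor and mesothelial sum is lower in the Tim-4+ library of every pair. It peaks in the Tim-4- library of pair 779, whereas *Tlr9* peaks in that of pair 783. *Lyz2* makes up most of the macrophage sum in every library.

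The other 3 endosomal receptors did not pass the test. *Tlr7*, the receptor for single-stranded RNA, was read at 159, 93.1, 188 and 197 CPM with Tim-4 and at 135, 77.1, 153 and 113 CPM without it, in pairs 793, 784, 783 and 779. The Tim-4+ library was the higher one in all 4 pairs while the ranges of the subsets overlapped. The log2 difference was 0.40 (SE 0.13, 95% interval 0.11 to 0.69, edgeR adjusted p = 0.0652), and DESeq2 gave an adjusted p of 0.0337.

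*Tlr8*, a close relative of *Tlr7* beside it on the X chromosome, stood at 91.9, 42.4, 128 and 86.7 CPM in the Tim-4+ libraries, taken in the same order of pairs, and at 82.2, 48.5, 100.3 and 50.8 CPM in the Tim-4- libraries. It was higher in the Tim-4+ library of 3 of the 4 pairs, pair 784 being the exception. The difference was 0.27 (SE 0.16, 95% interval -0.09 to 0.63, edgeR adjusted p = 0.269), with overlapping ranges. *Tlr3*, the receptor for double-stranded RNA, had means of 18.5 ± 4.68 and 19.5 ± 5.58 CPM (SD, n = 4 each). Its difference of -0.07 had a 95% interval of -0.38 to 0.25 (edgeR adjusted p = 0.778), and 2 pairs went each way. *Tlr3* overlaps the antisense gene *Gm45542* by 698 bases, and that gene held 4 counts over all libraries.

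*Tlr2*, the partner of TLR1 and TLR6 and the most abundant receptor per length, was read at 502, 738, 340 and 505 CPM in the 4 Tim-4+ libraries. In their Tim-4- partners it was read at 538, 804, 238 and 282 CPM. The pairs were split, since pairs 793 and 784 were slightly lower in Tim-4+ TAMs and pairs 783 and 779 were higher, by log2 ratios of 0.51 and 0.84. The difference was 0.28 (SE 0.19, 95% interval -0.16 to 0.72, edgeR adjusted p = 0.342), and pair 784 was the highest in both subsets.

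*Tlr1* was read at 19.3, 22.9, 29.6 and 16.2 CPM in the Tim-4+ libraries and at 24.8, 59.1, 44.2 and 16.6 CPM in the Tim-4- libraries. Every pair was lower in its Tim-4+ library, by log2 ratios from -0.04 in pair 779 to -1.37 in pair 784, and the ranges overlapped. The difference was -0.59 (SE 0.21, 95% interval -1.08 to -0.09, edgeR adjusted p = 0.0972), with an adjusted p of 0.0499 by DESeq2. *Tlr6* stood at 18.1, 16.9, 23.6 and 23.2 CPM with Tim-4 and at 17.7, 12.6, 23.2 and 14.2 CPM without. Each pair was higher in its Tim-4+ library, though by only 0.02 and 0.03 on the log2 scale in pairs 783 and 793. Its difference was 0.30 (95% interval -0.06 to 0.65, edgeR adjusted p = 0.218).

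Per length, the ratio of *Tlr1* to *Tlr6* was 1.22 ± 0.32 with Tim-4 and 2.55 ± 1.81 without (SD, n = 4 each), and it was lower in the Tim-4+ library of each pair. It was not tested, and it rests on 2 genes that share sequence. *Tlr4*, the lipopolysaccharide receptor, differed least of the 10, with means of 53.6 ± 5.53 and 55.1 ± 13.5 CPM (SD, n = 4 each). Its difference of -0.01 had a 95% interval of -0.32 to 0.29 (edgeR adjusted p = 0.956).

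*Tlr5*, the flagellin receptor, was the scarcest of the 10. It was read at 22, 5, 104 and 19 counts with Tim-4 and at 64, 23, 236 and 108 counts without it, which is 0.715 ± 0.806 and 1.48 ± 1.15 CPM (SD, n = 4 each). All 4 pairs were lower on the Tim-4+ side, and pair 783 was the highest in both subsets, as for *Tlr9*. The log2 difference was -1.31 (SE 0.38, 95% interval -2.18 to -0.43) and missed the threshold (edgeR adjusted p = 0.0514), while DESeq2 gave an adjusted p of 0.0123.

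In all, 3 receptors (*Tlr6*, *Tlr7* and *Tlr13*) were higher in Tim-4+ TAMs in every pair and 3 (*Tlr1*, *Tlr5* and *Tlr9*) were lower in every pair. Among all tested genes 22.4% were higher and 20.2% lower in every pair. *Tlr11* and *Tlr12*, which are not among the 10, held 2 to 65 and 0 to 112 counts per library, and *Tlr12* was at 0 in 3 of the 4 Tim-4+ libraries and at 4 to 112 counts in Tim-4- TAMs (edgeR adjusted p = 0.0222).

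**Figure D3:**
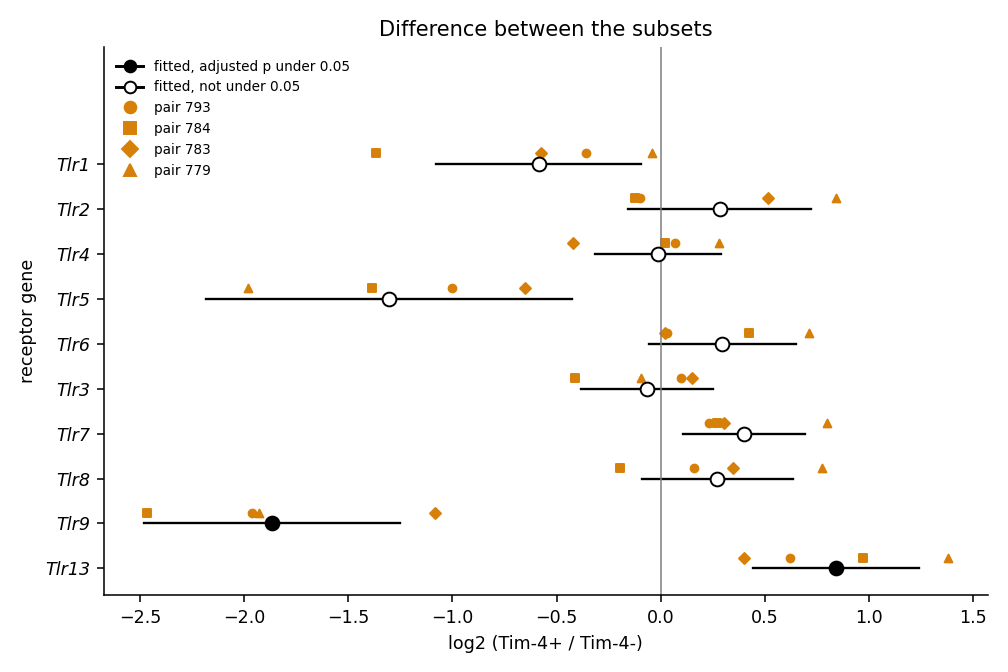
Log2 of the Tim-4+ level over the Tim-4- level for each receptor, with fitted value and 95% interval (circles and bars, filled where the adjusted p is under 0.05) and the 4 pair ratios above them. Only *Tlr9* (-1.87) and *Tlr13* (0.84) are filled, and the intervals of *Tlr1*, *Tlr5* and *Tlr7* also leave out 0.

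Over the 10 receptors together, the summed level was 349 ± 32.9 CPM per kb with Tim-4 and 284 ± 76.7 without (SD, n = 4 each), and the Tim-4+ library was the higher in each pair. *Tlr2* made up 48.9% ± 11.9 and 51.7% ± 16.6 of it, and *Tlr2* with *Tlr13* made up 73.8% ± 8.85 and 70.0% ± 10.6. The share of *Tlr13* was 24.9% ± 4.26 with Tim-4 and 18.3% ± 6.23 without, and it was higher on the Tim-4+ side of every pair. The 5 endosomal receptors held 44.8% ± 10.9 and 39.0% ± 14.3, higher in all 4 pairs, while the ranges of the subsets overlapped. In pairs 793, 784, 783 and 779 they held 45.0%, 29.6%, 54.8% and 49.7% with Tim-4. Without it they held 36.6%, 20.5%, 54.4% and 44.5%. *Tlr9* held 0.247% ± 0.303 and 0.873% ± 0.662, and the ratio of *Tlr7* to *Tlr9* per length was 84.3 ± 51.2 and 15.5 ± 7.60. These shares follow from the receptors' own levels and were not tested.

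**Figure D4:**
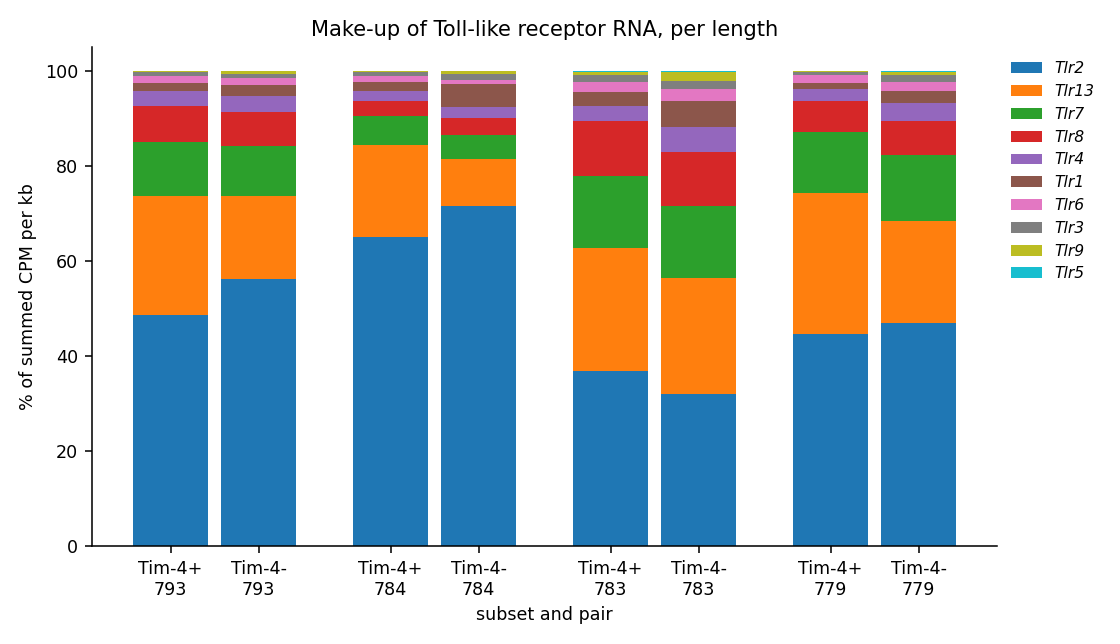
Percentage that each receptor makes up of the summed CPM per kb, by library, with the subsets of a pair side by side. *Tlr2* is the largest part in all 8 libraries, and the *Tlr13* part is larger in the Tim-4+ library of every pair.

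The genes that act with these receptors were followed as 6 lists, 96 genes in all, of which 94 were tested, 28 rose and 3 fell in Tim-4+ TAMs. At this setting the shares of all tested genes were 8.97% and 8.43%. The lists were chosen with earlier results of these data known, so these counts describe the lists and are no test of them. With total counts 16 rose and 17 fell. The number that rose was 3 without pair 784, 8 without pair 779 and 1 without the pair block. The calls among all genes moved too. Of all 16861 tested genes, 789 rose and 4906 fell with total counts, and 147 rose without the pair block. Without pair 784, 78 of 16157 genes rose, and without pair 779, 445 of 16196. Without pair 793 it was 719 of 16246, and without pair 783, 1573 of 15905. The lists are given from the cell surface inward. Values with ± are SDs over 4 libraries.

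Of 14 co-receptors and trafficking factors 8 rose and 1 fell, with a median log2 difference of 0.45. *Lbp*, which carries lipopolysaccharide to CD14, rose most, from 59.9 ± 18.7 to 287 ± 53.8 CPM (log2 difference 2.30, SE 0.28, edgeR adjusted p = 0.00840). *Cd14*, the co-receptor of TLR4 and TLR2, rose from 753 ± 257 to 1402 ± 294 CPM (0.93, SE 0.16, edgeR adjusted p = 0.0115). *Ly96*, which encodes the MD-2 partner of TLR4, rose from 9.47 ± 1.51 to 15.7 ± 1.65 CPM (0.74, SE 0.14, edgeR adjusted p = 0.0136). So *Cd14* and *Ly96* were higher in Tim-4+ TAMs, while *Tlr4* had a difference of -0.01.

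*Cd36*, a scavenger receptor that works with TLR2 and TLR6, rose from 234 ± 80.2 to 385 ± 139 CPM (0.69, SE 0.15, edgeR adjusted p = 0.0229). *Cd180* and its partner *Ly86*, and the chaperones *Hsp90b1* and *Cnpy3*, through which most Toll-like receptors fold, also rose, by 0.63, 0.45, 0.51 and 0.41 on the log2 scale. *Slc15a4*, an endosomal transporter needed for TLR7 and TLR9 signals, fell by 0.44. *Unc93b1*, which carries the endosomal receptors out of the endoplasmic reticulum, stood at 931 ± 52.1 and 847 ± 158 CPM with a difference of 0.15 (95% interval -0.21 to 0.52, edgeR adjusted p = 0.540). With 1 pair left out, the number of these 14 genes that rose was 2 without pair 793, 1 without pair 784, 8 without pair 783 and 1 without pair 779. It was 2 with total counts and 1 without the pair block.

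Of 7 adaptors none rose and 1 fell, with a median of 0.13. *Myd88*, the adaptor of all these receptors but TLR3, stood at 74.1 ± 29.7 and 67.3 ± 20.7 CPM (0.10, 95% interval -0.17 to 0.36, edgeR adjusted p = 0.595). *Ticam1*, which encodes the TRIF adaptor of TLR3 and TLR4, had a difference of 0.39 (95% interval 0.12 to 0.66, edgeR adjusted p = 0.0557). *Scimp*, a transmembrane adaptor for Lyn kinase, fell from 2.34 ± 1.05 to 0.687 ± 0.333 CPM (-1.82, SE 0.34, edgeR adjusted p = 0.0147).

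Of 21 kinases and ubiquitin ligases 1 rose and none fell. This was *Ikbke*, which acts on interferon regulatory factors, at 330 ± 216 against 221 ± 132 CPM (0.58, SE 0.14, edgeR adjusted p = 0.0285). The IRAK and TRAF genes of the list, *Irak1*, *Irak2*, *Irak4*, *Traf3* and *Traf6*, had differences of 0.08 to 0.31 and none passed. The median of the list was 0.23.

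Of 14 transcription factors 4 rose and none fell, with a median of 0.11. *Irf7*, the factor for interferon genes downstream of TLR7 and TLR9, rose from 226 ± 151 to 541 ± 427 CPM (1.13, SE 0.14, edgeR adjusted p = 0.00637). *Nfkbiz*, *Cebpb* and *Rel*, an atypical IkB protein, a C/EBP factor and an NF-kB subunit, rose by 1.02, 0.89 and 0.62 on the log2 scale. Of 18 negative regulators 4 rose and 1 fell, with a median of 0.18. *Irak3*, which encodes the inhibitory IRAK-M, rose from 51.5 ± 53.7 to 117 ± 118 CPM (1.25, SE 0.17, edgeR adjusted p = 0.00778). Its level differed widely between pairs, while its pair ratios were 1.02, 1.16, 0.94 and 1.89 on the log2 scale.

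Among the other negative regulators, *Tnfaip3* (the deubiquitinase A20), *Dusp1* (a MAP kinase phosphatase) and *Ptpn6* (the phosphatase SHP-1) rose by 1.11, 0.94 and 0.63 on the log2 scale. *Tnip3*, an A20-binding protein, fell by 0.72.

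Of 20 tested genes that Toll-like receptor signals are known to induce, 11 rose and none fell, with a median of 1.01. *Il6* rose from 10.5 ± 12.4 to 57.6 ± 42.1 CPM (2.91, SE 0.29, edgeR adjusted p = 0.00613). *Ptgs2*, the inducible cyclooxygenase, *Il1a* and *Il10* rose by 2.28, 2.10 and 2.03 on the log2 scale. *Cxcl1*, *Saa3*, *Cd80*, *Ccl3*, *Cxcl2*, *Acod1* and *Cd86* were the others that rose. *Tnf* and *Il1b* had differences of 0.51 and 0.57 and did not pass (edgeR adjusted p = 0.323 and 0.228). *Il12a* and *Ifnb1* had too few counts to be tested, at most 15 and 10 in a library. With a pair left out, 11 rose without pair 793, 2 without pair 784, 12 without pair 783 and 5 without pair 779, and none without the pair block. These genes answer to other signals too, and no receptor was stimulated here.

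**Figure D5:**
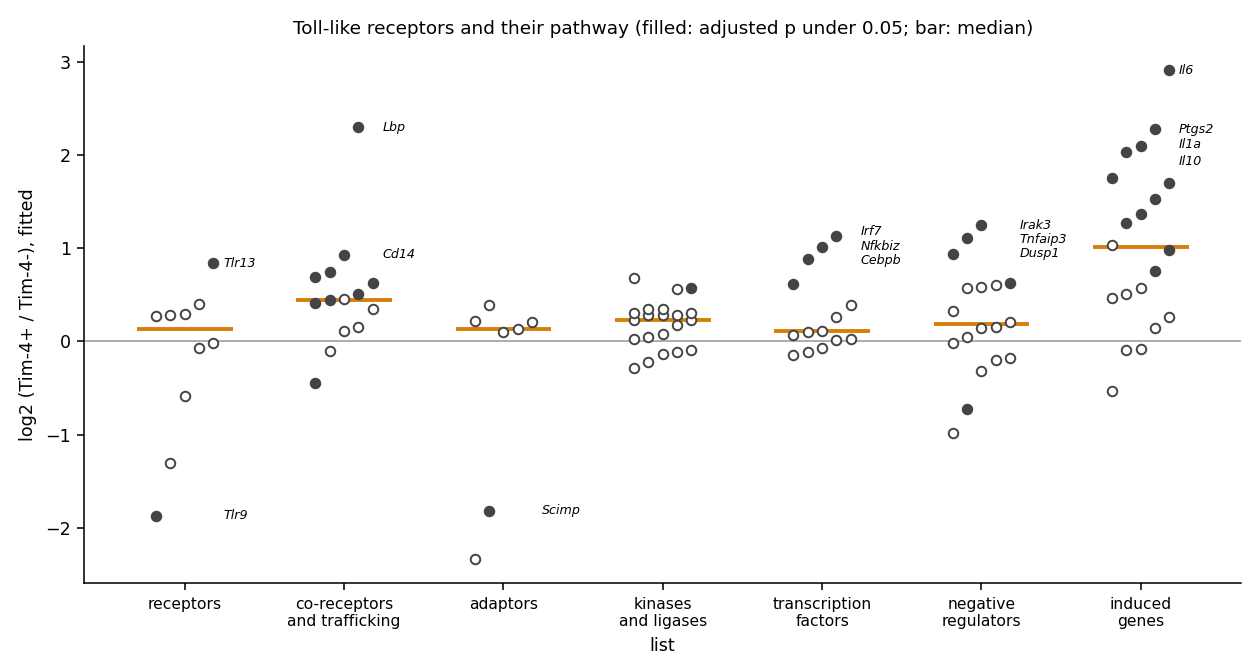
Fitted log2 difference, Tim-4+ minus Tim-4-, for the 10 receptors and the tested genes of the 6 lists, filled where the adjusted p is under 0.05, with a bar at the median of each list. The median is 1.01 for the induced genes and 0.45 for the co-receptors and trafficking factors, and 0.13 for the receptors.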

How the data were processed

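The 8 libraries (4 numbered pairs of a Tim-4+ and a Tim-4- sample) were made with Ribo-Zero and stranded kits and read paired-end for 50 cycles. The authors deposited raw counts per gene for each of 16 lanes, without normalization. The submitters' notes name FastQC 0.11.3, TopHat2 2.0.13, Cufflinks and Cuffdiff 2.2.1 with GRCm38/mm10, while the text of the study gives a human reference. The read counter, and whether it used strand, are not given in the sources used here, so antisense overlaps are uncertain. Reads matching several places were set aside (20.3% to 24.5% of reads, but 9.11% in lane 2 of the Tim-4- library of pair 779). One lane (Tim-4-, pair 793, lane 1) is listed by symbol and was joined by row order, with *Timd4* put back in its place, and 97% of comparable symbols matched. The other lanes carry Ensembl identifiers, 98.6% of which are in GENCODE M21. Summary lines that name no gene were left out.

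Lanes were summed. Genes reaching 10 counts in 4 or more of the 8 libraries were tested with edgeR 4.0.16 (R 4.3.3, quasi-likelihood test, TMM, robust, pair block, Benjamini-Hochberg over 16861 genes). The SE is the size of the log2 fold change over the root of F. CPM is TMM-scaled. The lowest visible level, 3 counts, was 0.0431 to 0.0560 CPM on raw library totals, without the TMM factors, for counting error only. The pair numbers are those of the labels. A table that accompanies the study appears to carry them in reverse order, which would rename the pairs but keep each pair's 2 libraries together. Numbers in the labels pair the samples, and deviations from the subset means correlated within each pair (0.277 to 0.498) and at most 0.0658 across pairs. edgeR's common biological variation between libraries fell from 0.396 to 0.261 (as a coefficient) once the block was fitted. Whether pairs are separate mice is not stated by the labels, so p-values measure the spread between these pairs.

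The receptors and lists were chosen with earlier results of these data known. Named genes are the 10 receptors, *Timd4*, up to 4 called genes per list with the largest change and at least 1 CPM, 6 genes named whatever their values (*Unc93b1*, *Myd88*, *Ticam1*, *Cd14*, *Ly96*, *Irak3*), the 3 genes nearest in pattern to each called receptor, and *Tlr11* and *Tlr12*. Other genes named, from the lists, were chosen after their values were seen. Scripts were tested on simulated data.

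Alternatives were DESeq2 size factors, total counts, no filter, at least 50 counts, no pair block, lane 2 only, the symbol-listed lane left out, DESeq2 1.42.0, each pair left out, and a 2-fold minimum. Counts for 2 of the lists under these settings were added after seeing the data. Columns of other samples numbered 0.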

Additional observations from a re-analysis of the deposited data

Results flagged for a closer look

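In the Tim-4+ subset, *Tlr9* in pair 783 stood at 7.48 CPM, far from the 1.18 to 1.24 CPM of the other 3 pairs. The gap to the nearest library took up 0.991 of the range of the 4 libraries. The same check was made for each of the 10 receptors in each subset, 20 groups in all, and this was the single group past the limit, where chance flags about 1 in 20. The Tim-4- library of pair 783 was also the highest of its subset, at 15.9 CPM. Without pair 783 the log2 difference of *Tlr9* was -2.15.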

How the results depend on the processing

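Over 12 alternatives each, 99 of 120 receptor differences kept their direction and their side of the threshold. Most of the 120 belong to receptors that were not called. For the called receptors it was 10 of 12 for *Tlr9* and 8 of 12 for *Tlr13*. Without the pair block *Tlr9* had a log2 difference of -1.53 (edgeR adjusted p = 0.253) and *Tlr13* 0.83 (adjusted p = 0.0667), so 0 receptors were called higher and 0 lower, and of the pathway genes 1 rose and 0 fell (28 and 3 with the block), of the induced genes 0 rose and of the co-receptor and trafficking genes 1 rose. Of all 16861 tested genes, 147 were called higher and 85 lower without the block. Scaling to total counts shifted the median of all genes to -0.36. On it *Tlr1* was -0.94, *Tlr4* -0.37 and *Tlr5* -1.65, all past the threshold (edgeR adjusted p = 0.0223, 0.0470 and 0.0221), and *Tlr2* (-0.076), *Tlr6* (-0.062) and *Tlr8* (-0.086) changed sign. Relative to that median the same differences were -0.58, -0.01, -1.29, 0.28, 0.30 and 0.27. Total counts called 4 receptors lower, 16 pathway genes higher and 17 lower, and 2 co-receptor and trafficking genes higher. Of all 16861 tested genes this scaling called 789 higher and 4906 lower.

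DESeq2 called 2 receptors higher and 3 lower, beside 2194 and 2328 of all 16861 tested genes. *Tlr1* was at -0.58 (DESeq2 adjusted p = 0.0499), *Tlr5* at -1.30 (0.0123) and *Tlr7* at 0.40 (0.0337). DESeq2 also called 34 pathway genes higher and 5 lower, beside 28 and 3 in the main fit. A minimum of 50 counts called 2 receptors lower, with *Tlr5* at -1.30 (edgeR adjusted p = 0.0440), and so did leaving out the symbol-listed lane, with *Tlr5* at -1.40 (0.0415). Of all genes these 2 settings called 1332 of 13251 and 1370 of 16638 lower. A 2-fold minimum left 0 receptors higher, 14 pathway genes higher and 1 lower. Of all 16861 tested genes it left 641 higher and 976 lower. *Tlr4* changed sign with lane 2 only (0.013) and without the symbol-listed lane (0.0059).

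With 1 pair left out, receptors called numbered 0 to 1 in each direction (0 higher without pair 793, 784 or 779, and 0 lower without pair 784), pathway genes 3 to 30 higher (3 without pair 784, 8 without pair 779) and 0 to 1 lower, induced genes 2 to 12 and co-receptor and trafficking genes 1 to 8. Of all tested genes, 78 (without pair 784) to 1573 (without pair 783) were then called higher, and 54 to 1895 lower. *Tlr9* ranged from -2.15 to -1.66 and *Tlr13* from 0.66 to 0.98. *Tlr3* ranged from -0.15 to 0.046, with the sign changed without pair 784, and *Tlr4* from -0.12 to 0.12, changed without pair 783 (0.12). The causes were not tested. Depth limits *Tlr5* most of the 10 receptors, with 5 counts in its lowest library.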

Other observations

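Pair 783 had the highest counts of 4 of the low-abundance receptors in both subsets. The same held for the counts of *Tlr4*, *Tlr6*, *Tlr7* and *Tlr8*, so it was not confined to scarce receptors. In CPM, *Tlr6* (23.6 and 23.2 in the Tim-4+ and Tim-4- libraries) and *Tlr8* (128 and 100) were also highest in this pair. Of the scarce receptors, *Tlr9* held 409 and 1248 counts in the Tim-4+ and Tim-4- libraries of pair 783. *Tlr5* held 104 and 236, *Tlr11* held 27 and 65, and *Tlr12* held 10 and 112. *Tlr2* went the other way, with its lowest CPM of both subsets in that pair (340 and 238). These are values of 1 pair, and no test was made.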
